A study of Mus musculus with 21 samples.

Results

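A set of 30 genes of cholesterol synthesis and sterol control were followed through 21 Affymetrix arrays of mouse dentate gyrus RNA. The genes were chosen by symbol, as enzymes of the pathway from acetyl units to cholesterol and as the proteins that sense, store or export sterols. Each gene was read from the brightest of the probe sets that carry its symbol alone, and 27 of the 30 could be read, out of 12499 genes tested on the arrays. *Acat2*, *Soat1* and *Nr1h2* had no probe set annotated with their symbol alone and are not described further. Some enzymes of the pathway are not on the list and were not analysed here.

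The study turned on NgR, the Nogo receptor encoded by *Rtn4r*, through a transgene that needs the tetracycline transactivator tTA and is shut off by doxycycline. Set 1 held 3 groups of 3 arrays: bitransgenic mice taken off doxycycline so that NgR is overexpressed, bitransgenic mice kept on a doxycycline diet so that it is not, and monotransgenic mice on water, which carry the NgR transgene without tTA and for which the labels record doxycycline removal too. In what follows, "doxycycline removed" and "off doxycycline" name the bitransgenic group alone. Experiment 2 held 3 bitransgenic arrays from mice given water and never exposed to doxycycline, and 3 monotransgenic arrays from mice on water. Set 3, which the labels describe by genotype alone, held 3 bitransgenic and 3 monotransgenic arrays. "Set 1" and "set 3" are names given here, since only experiment 2 is numbered in the labels. The mice of all 7 groups are transgenic, with no wild-type animals among them, and the sources used here do not give the promoter that drives tTA, the ages or the number of animals behind each array. The p-values reflect scatter among these samples, part of which may be technical.

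Cells make cholesterol by joining acetyl units into mevalonate, turning mevalonate into isoprene units, coupling these into squalene, closing squalene into lanosterol and trimming lanosterol to cholesterol. When sterols run low in the endoplasmic reticulum, the escort protein SCAP carries the SREBP transcription factors to the Golgi, where they are cut free and switch on the enzymes of the pathway. INSIG proteins hold SCAP back when sterols are plentiful. The brain makes its own cholesterol, since lipoproteins do not cross the blood-brain barrier, with glia, above all the myelin-forming oligodendrocytes, as large producers. Neurons clear the excess by hydroxylating it with CYP46A1.

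The promoters of 4 members are shown. *Insig1* and *Hmgcs1* were chosen as the tested members with a match to the sterol element core described below. *Mvk* was chosen for the lowest p in experiment 2 and *Lbr* for the lowest in set 3. *Insig1* also had the lowest p with doxycycline removed in set 1, and *Mvk* in the mean of the 3 sets. *Hmgcs1* is a textbook SREBP target. The sequences are the 250 bases before the annotated start, 5′ to 3′ on the gene's own strand, from RefSeq on build GRCm38.p6. *Insig1* lies at chr5:28071162-28071411 on the plus strand, *Hmgcs1* at chr13:119690101-119690350 on the plus strand, *Mvk* at chr5:114444019-114444268 on the plus strand and *Lbr* at chr1:181842402-181842651 on the minus strand. Capitals mark matches, on either strand, to CACNCCAC (the core of the sterol regulatory element bound by SREBP), CCAAT (bound by NF-Y), GGGCGG (bound by SP1) and CACGTG (the E-box).
Insig1: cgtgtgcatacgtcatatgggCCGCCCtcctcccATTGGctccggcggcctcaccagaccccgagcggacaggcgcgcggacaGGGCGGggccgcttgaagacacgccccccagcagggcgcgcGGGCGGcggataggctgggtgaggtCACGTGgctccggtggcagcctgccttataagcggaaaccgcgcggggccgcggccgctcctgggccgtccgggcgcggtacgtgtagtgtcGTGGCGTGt
Hmgcs1: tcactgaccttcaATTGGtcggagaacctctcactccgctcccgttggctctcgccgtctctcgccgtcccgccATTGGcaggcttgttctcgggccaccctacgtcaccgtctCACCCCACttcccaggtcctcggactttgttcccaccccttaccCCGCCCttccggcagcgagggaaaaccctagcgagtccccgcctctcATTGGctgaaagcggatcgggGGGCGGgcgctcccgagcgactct
Mvk: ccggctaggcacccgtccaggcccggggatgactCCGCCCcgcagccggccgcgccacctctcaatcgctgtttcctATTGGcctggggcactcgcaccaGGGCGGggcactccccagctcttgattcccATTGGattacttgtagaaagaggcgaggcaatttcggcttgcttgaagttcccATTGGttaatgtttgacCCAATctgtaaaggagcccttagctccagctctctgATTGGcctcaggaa
Lbr: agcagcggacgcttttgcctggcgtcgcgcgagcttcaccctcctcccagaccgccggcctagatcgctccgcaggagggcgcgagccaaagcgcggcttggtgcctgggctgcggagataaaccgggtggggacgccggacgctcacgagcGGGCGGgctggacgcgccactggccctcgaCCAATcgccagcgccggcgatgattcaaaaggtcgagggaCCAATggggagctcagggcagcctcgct

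*Insig1* and *Hmgcs1*, shown because they hold the sterol element core, each had 1 match to it in these windows. *Mvk* held 5 CCAAT matches and 2 GGGCGG matches and no match to the core. *Lbr* held 2 CCAAT matches and 1 GGGCGG match. Of the 30 listed genes, 25 were in the promoter table, counted over windows of 300 bases that also take in 50 bases after the start. The sterol element core was found in 3 of the 25 (12%; *Acat2*, *Hmgcs1* and *Insig1*), against 7.12% of 27025 genes. CCAAT was found in 21 (84%) against 41.1%, GGGCGG in 23 (92%) against 38.2%, and CACGTG in 6 (24%) against 8.09%. No overlap between matches of different motifs was removed, and the shares were not matched for base composition. These are matches of letters, not binding sites.

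The arrays are bulk measurements, so fewer cells of a type and less RNA per cell cannot be told apart. *Rtn4r* intensity was 254 to 1469 in the arrays with the transgene on, 63.8 to 185 in monotransgenic arrays and 73.1 to 111 on the doxycycline diet. Of the 5 granule cell markers, *Calb1* was at 3755 to 7492 over the 21 arrays, *C1ql3* at 3079 to 6229, *Dsp* at 2804 to 6004, *Prox1* at 318 to 951 and *C1ql2* at 135 to 1234. Experiment 2 stood apart from sets 1 and 3 in *Xist*, the RNA of the inactive X chromosome. *Xist* was at 2361 to 4750 there and at 9.59 to 33.7 in sets 1 and 3. The log2 ratio of the 3′ to the 5′ actin probe set reached 6.24 there, but the ranges overlapped. They were 4.79 to 6.24 in experiment 2 and 4.11 to 5.04 in sets 1 and 3. Replicates also scattered more in experiment 2. The median SD of the members between replicates was 0.326 in its bitransgenic and 0.299 in its monotransgenic group, against 0.139 to 0.216 in the other 5 groups. The labels give no sex, and set and group levels across sets cannot be told apart, so differences are taken within sets.

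Intensities are given as deposited, on a linear scale where the trimmed mean of every array is 150. Differences are in log2 units of normalized values, with their standard error from 1 limma fit over all arrays and a Benjamini-Hochberg adjusted p over the 12499 genes. No member passed an adjusted p of 0.05 in any of the 6 main comparisons or in the 3 differences between sets. Few genes of any kind did: 0.032% of all genes between doxycycline removed and diet, 0.072% between doxycycline removed and monotransgenic, 0.024% between diet and monotransgenic, 0.096% in experiment 2, 0% in set 3 and 0.072% for the mean of the 3 sets. At an unadjusted p under 0.05, limma gave 2, 5, 0, 6, 1 and 5 of the 27 members in the same order. The shares of all genes were 5.04%, 7.86%, 3.85%, 14.4%, 4.19% and 11.8%. The 95% interval of a member's difference reached a median of 0.41 to either side in a comparison of 2 groups (0.28 to 0.65) and 0.24 for the mean of the 3 sets (0.16 to 0.38).

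In set 1, with doxycycline removed, *Insig1*, *Dhcr7*, *Stard4* and *Sqle* read highest against the monotransgenic mice, and *Cyp46a1*, *Mvk* and *Srebf1* read lowest. Of the 27 members, 18 had a difference above 0 and 9 below, with a median of 0.11 (all genes -0.01, with 47.7% above 0). Among the 18 synthesis enzymes 14 were above 0 (median 0.18). The groups did not overlap for 8 members (29.6%), against 22.2% of all genes. Of these, 5 read higher (all genes 10.8%) and 3 lower (all genes 11.4%). Against the diet group, which shares the genotype, 16 members were above 0 and 11 below (median 0.07, all genes -0.01, with 48.1% above 0), and 7 did not overlap (25.9%, all genes 16.2%). The diet group against the monotransgenic group had 17 members above 0 and 10 below (median 0.10, all genes 0.00, with 49.9% above 0), and 4 did not overlap (14.8%, all genes 14.9%). The 3 comparisons of set 1 share their groups and are not independent of each other.

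In experiment 2 the members with the lowest p all read lower in bitransgenic mice: *Mvk*, *Srebf2*, *Lss*, *Sc5d*, *Srebf1* and *Cyp46a1*. These 6 (22.2%) had an unadjusted p under 0.05 in limma, where 14.4% of all genes had such a p in either direction. Of all genes 6.87% had such a p and read lower. The test was two-sided, with no direction set in advance. Over all 27 members 12 were above 0 and 15 below (median -0.01, all genes 0.02, with 52.1% above 0). The groups did not overlap for 4 members (14.8%, all genes 8.69%), all of them lower (all genes 3.57%). Both counts of lower members rest on the brightest probe set. Other probe sets above the filter read above 0 in experiment 2 for *Lss* (0.44) and *Sc5d* (0.29 and 0.25), and below 0 for *Srebf2* (-0.34). One of *Mvk* under the filter read 0.29. *Srebf1* and *Cyp46a1* had a single probe set. In set 3, 17 members were above 0 and 10 below (median 0.09, all genes 0.03, with 56.7% above 0), and 5 members did not overlap (18.5%, all genes 13.5%). There *Lbr*, *Msmo1*, *Sqle* and *Fdft1* had the lowest p, each with a difference below 0. In the mean of the 3 sets 13 members were above 0 and 14 below (median -0.01, all genes 0.01, with 51.6% above 0). Of the 27, 7 (25.9%) had the same sign in all 3 sets, against 29.7% of all genes: 6 were above 0 each time (*Pmvk*, *Mvd*, *Hsd17b7*, *Insig1*, *Stard4* and *Abca1*; all genes 16.7%) and *Sc5d* was below (all genes 13%). These signs are those of the brightest probe set. Another one above the filter was below 0 for *Mvd* in experiment 2 (-0.50), for *Hsd17b7* in experiment 2 (-0.10) and set 1 (-0.01), and for *Stard4* in set 3 (-0.14), and above 0 for *Sc5d* in all 3 sets.

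**Figure D1:**
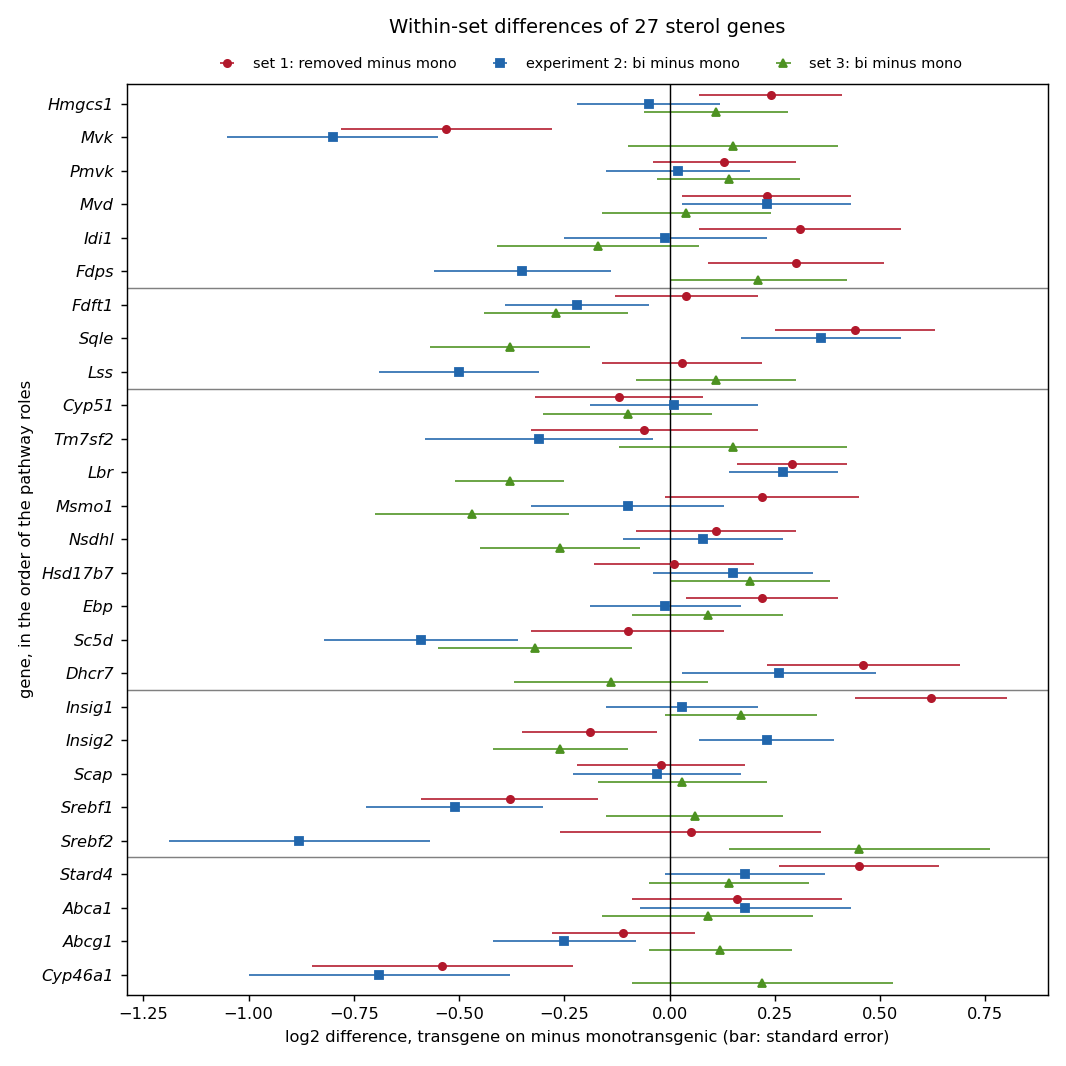
Log2 difference of each of the 27 genes between transgene-on and monotransgenic mice in set 1 (circles), experiment 2 (squares) and set 3 (triangles), with the standard error as a bar and gray lines between role groups. *Insig1* in set 1 (0.62) and *Srebf2* in experiment 2 (-0.88) lie farthest from 0 on either side, and no difference passed the adjusted test.

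The mevalonate steps held 6 members. *Hmgcs1*, the synthase that joins acetyl units, was at 2101 to 4534 over the 21 arrays with a median of 2822. The lowest array was monotransgenic (experiment 2) and the highest was off doxycycline (set 1). Its differences were 0.24 ± 0.17 in set 1 (doxycycline removed minus monotransgenic), -0.05 ± 0.17 in experiment 2 and 0.11 ± 0.17 in set 3. These were each within 1.5 standard errors of 0. *Mvk* is mevalonate kinase. Its intensity was 35.5, 21.3 and 30.6 in the set 1 arrays with doxycycline removed, 45, 29.9 and 48.4 on the diet, and 58, 52 and 41.1 in the monotransgenic arrays. It was 53, 18 and 24.3 in the bitransgenic and 58.5, 90.5 and 68.5 in the monotransgenic arrays of experiment 2. It was 47.6, 36.2 and 53.5 against 45.9, 25.3 and 55.8 in set 3. The transgene-on arrays lay below all monotransgenic ones in set 1 and in experiment 2, and the 2 groups overlapped in set 3.

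The *Mvk* difference was -0.80 ± 0.25 in experiment 2 (adjusted p = 0.188, limma), -0.53 ± 0.25 in set 1 (adjusted p = 0.622), 0.15 ± 0.25 in set 3 (adjusted p = 1) and -0.39 ± 0.14 in the mean of the 3 sets (adjusted p = 0.256). It lay below 0 in 2 of 3 sets. Without experiment 2 the mean difference was -0.19. The probe set is dim, and its 21 values lie below the arrays' trimmed mean of 150. *Mvd*, the mevalonate diphosphate decarboxylase, was dim as well, at 31.1, 26.4 and 24.7 with doxycycline removed and 21.8, 21.3 and 12.6 on the diet. The groups did not overlap, and the difference was 0.42 ± 0.20 (adjusted p = 0.966, limma). Against the monotransgenic arrays of set 1 it was 0.23 ± 0.20. *Fdps*, which makes farnesyl diphosphate, read 0.30 ± 0.21 in set 1 and -0.35 ± 0.21 in experiment 2, and *Idi1*, the isomerase of the isoprene unit, 0.31 ± 0.24 and -0.01 ± 0.24. *Pmvk*, the next kinase after *Mvk*, stayed between 0.02 and 0.14 in the 3 sets.

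Of the squalene steps, *Sqle*, the squalene epoxidase, differed in sign between sets. Its intensity was 501, 364 and 312 in the arrays with doxycycline removed, 352, 289 and 396 on the diet, and 269, 266 and 308 in the monotransgenic arrays of set 1. In set 3 it was 302, 341 and 237 in bitransgenic and 350, 358 and 445 in monotransgenic arrays. In experiment 2 it was 282, 267 and 287 against 276, 211 and 189. The transgene-on arrays lay above the monotransgenic ones in set 1 and below them in set 3 without overlap, and in experiment 2 the groups overlapped in normalized values. The differences were 0.44 ± 0.19 in set 1 (adjusted p = 0.543, limma), 0.36 ± 0.19 in experiment 2 (adjusted p = 0.379) and -0.38 ± 0.19 in set 3 (adjusted p = 1). The diet group read 0.27 ± 0.19 against the monotransgenic group of set 1 (adjusted p = 1).

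*Lss* closes the sterol rings. It read 50.2, 73.8 and 81.8 in bitransgenic and 128, 114 and 102 in monotransgenic arrays of experiment 2, with no overlap, a difference of -0.50 ± 0.19 (adjusted p = 0.25, limma). A second probe set of *Lss* above the filter went the other way, at 0.44, so the direction for this gene depends on the probe set. In sets 1 and 3 *Lss* read 0.03 ± 0.19 and 0.11 ± 0.19. *Fdft1*, the squalene synthase, was at 826, 852 and 795 in bitransgenic and 986, 775 and 1245 in monotransgenic arrays of set 3, which overlapped (-0.27 ± 0.17, adjusted p = 1). *Fdft1*, *Hsd17b7* and *Mvd* were read from probe sets whose design type can also bind other transcripts. The second-brightest probe sets of *Lss* and *Hmgcs1* are of such a type too.

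The sterol steps hold 9 members, which act between lanosterol and cholesterol. *Lbr*, the lamin B receptor, doubles as a sterol C14 reductase. It was at 239, 240 and 255 with doxycycline removed, 240, 232 and 218 on the diet, and 192, 210 and 205 in the monotransgenic arrays of set 1. It was at 224, 189 and 182 in bitransgenic and 269, 241 and 281 in monotransgenic arrays of set 3. In experiment 2 it was at 238, 222 and 237 against 161, 193 and 251. The set 1 arrays with doxycycline removed lay above the monotransgenic ones, and the set 3 bitransgenic arrays lay below theirs, without overlap in either set. The differences were 0.29 ± 0.13 in set 1 (adjusted p = 0.621, limma), 0.27 ± 0.13 in experiment 2 (adjusted p = 0.356) and -0.38 ± 0.13 in set 3 (adjusted p = 1). The diet arrays of set 1 also lay above the monotransgenic ones without overlap (0.17 ± 0.13). Doxycycline removed minus diet was 0.12 ± 0.13, without overlap in normalized values.

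*Tm7sf2* carries the same C14 reductase activity as *Lbr*. It was at 64, 64.2 and 55.4 with doxycycline removed, 108, 91.8 and 78.4 on the diet, and 57.5, 74.7 and 69.9 in the monotransgenic arrays of set 1. The diet arrays were the high ones, above both other groups without overlap. The difference was -0.44 ± 0.27 for doxycycline removed minus diet (adjusted p = 0.999, limma) and 0.38 ± 0.27 for diet minus monotransgenic (adjusted p = 1). *Msmo1*, the C4 methyl oxidase, was at 129, 125 and 68.4 in bitransgenic and 147, 118 and 204 in monotransgenic arrays of set 3. The groups overlapped, with 1 low bitransgenic array and 1 high monotransgenic array (-0.47 ± 0.23, adjusted p = 1). *Dhcr7*, which makes cholesterol from its last precursor in one branch, was at 225, 132 and 155 with doxycycline removed, 127, 124 and 134 on the diet, and 127, 119 and 114 in the monotransgenic arrays of set 1. The normalized values did not overlap with either control group. The differences were 0.38 ± 0.23 against the diet (adjusted p = 0.999, limma) and 0.46 ± 0.23 against the monotransgenic mice (adjusted p = 0.683).

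*Sc5d* is the sterol C5 desaturase. It was at 196, 87.2 and 189 in bitransgenic and 194, 256 and 300 in monotransgenic arrays of experiment 2. Deposited values crossed at 1 array of each group, normalized values did not overlap by a small margin, and the second bitransgenic array was the lowest of all 21. In set 1 it was at 324, 234 and 214 with doxycycline removed and 226, 355 and 264 in monotransgenic arrays, and in set 3 at 229, 197 and 158 against 263, 216 and 262, with overlap of the deposited values in both sets. The experiment 2 difference was -0.59 ± 0.23 (adjusted p = 0.266, limma), with -0.10 ± 0.23 in set 1, -0.32 ± 0.23 in set 3 and -0.34 ± 0.13 in the mean (adjusted p = 0.308). The second-brightest *Sc5d* probe set read 0.29 in experiment 2, 0.38 in set 1, 0.02 in set 3 and 0.23 in the mean. The third above the filter read 0.25, -0.15, 0.05 and 0.05 in the same order. Of the 3 probe sets, the brightest alone was below 0 in experiment 2, in set 3 and in the mean. *Cyp51*, *Nsdhl*, *Hsd17b7* and *Ebp*, which remove methyl groups or move the ring double bond, stayed between -0.26 and 0.22 in the 3 sets on their brightest probe sets. Other probe sets above the filter went beyond this range. For *Hsd17b7* one read 0.65 in experiment 2 and another 0.37 in set 3, and for *Cyp51* one read -0.35 in set 3.

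**Figure D2:**
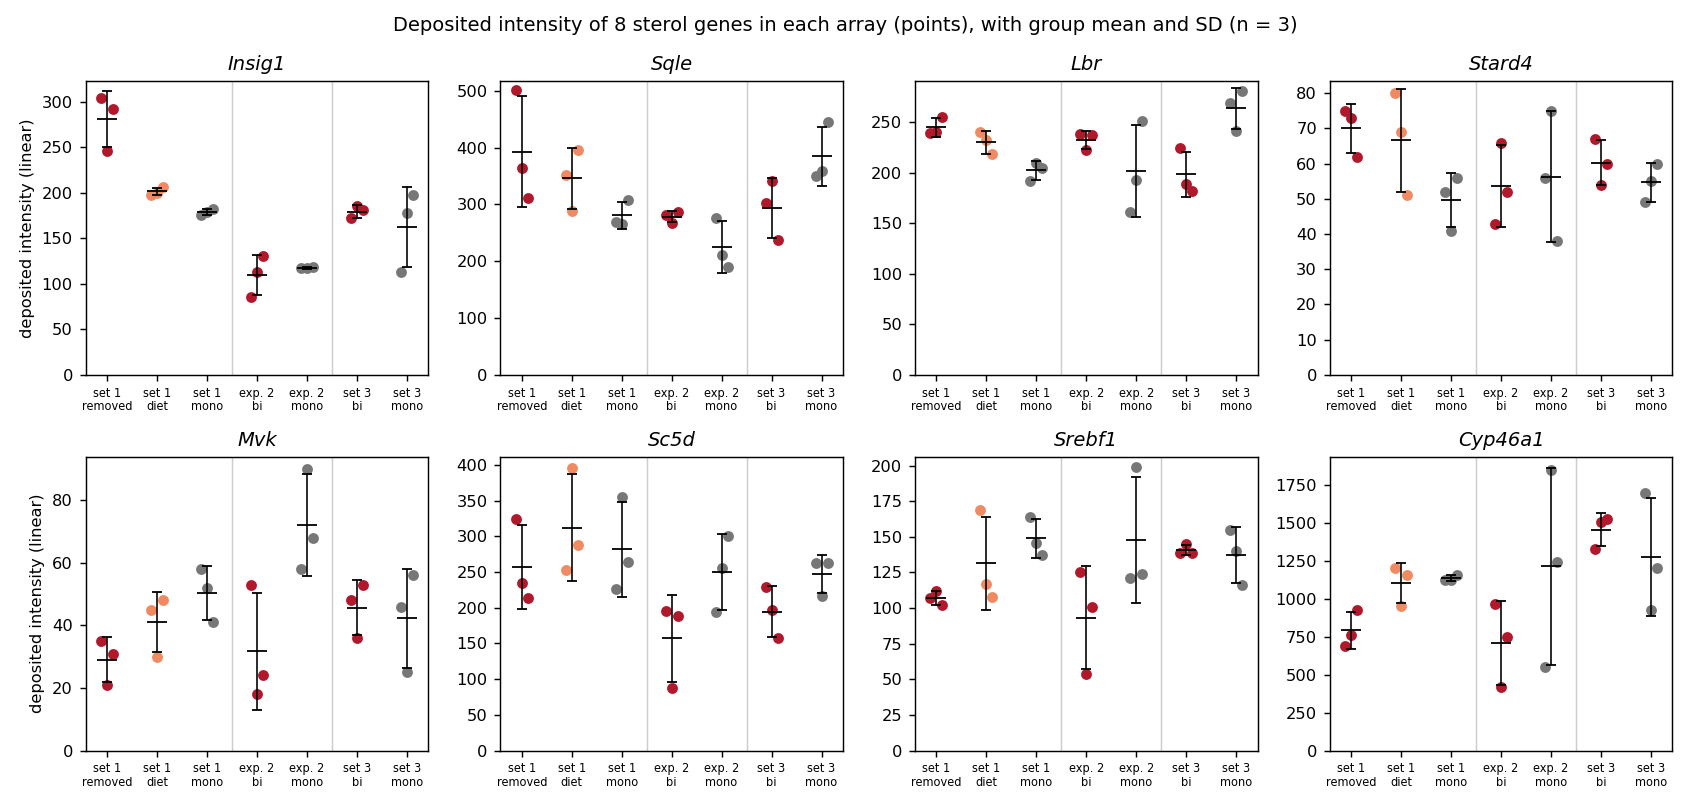
Deposited intensity of 8 genes in each array (points, linear axes from 0), with the group mean and SD (n = 3), for the 7 groups. *Insig1* is highest with doxycycline removed (246 to 304) and lowest in experiment 2 (85.8 to 130), and *Sqle* and *Lbr* order their groups oppositely in sets 1 and 3.

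Among the sterol sensors, *Insig1* held the lowest p of any member in set 1. *Insig1* is itself an SREBP target, so its RNA is often read as a gauge of SREBP activity. Its intensity was 304, 246 and 292 with doxycycline removed, 198, 200 and 206 with doxycycline in the diet, and 175, 179 and 182 in the monotransgenic arrays. The 3 groups of set 1 did not overlap with each other. In experiment 2 it was 85.8, 113 and 130 in bitransgenic and 117, 117 and 118 in monotransgenic arrays. In set 3 it was 172, 185 and 181 against 113, 178 and 197. Those groups overlapped in both sets, and the first monotransgenic array of set 3 was the low one.

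The *Insig1* difference in set 1 was 0.62 ± 0.18 against the monotransgenic mice (1.54-fold, adjusted p = 0.235, limma) and 0.46 ± 0.18 against the diet (1.38-fold, adjusted p = 0.826). The diet and monotransgenic groups differed by 0.16 ± 0.18. In experiment 2 the difference was 0.03 ± 0.18, in set 3 0.17 ± 0.18, and in the mean of the 3 sets 0.27 ± 0.10 (above 0 in 3 of 3 sets, adjusted p = 0.274). With the 9 arrays of set 1 fitted alone, the difference against the monotransgenic mice passed, at an adjusted p of 0.00982, as did that of *Cyp46a1*. That fit takes its spread from set 1 and called 326 genes in all, against 9 in the fit over 21 arrays.

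*Srebf2* encodes the SREBP that mainly drives cholesterol synthesis. Its brightest probe set was at 6.78, 24.2 and 17.1 in bitransgenic and 55, 59.2 and 33.8 in monotransgenic arrays of experiment 2, without overlap. The difference was -0.88 ± 0.31 (adjusted p = 0.234, limma), the largest in size among the members. In set 1 it was 0.05 ± 0.31 and in set 3 0.45 ± 0.31. The values are dim, and a second probe set read -0.34 in experiment 2 and -0.25 in set 3. *Srebf1*, which mainly drives fatty acid synthesis, was at 125, 53.8 and 101 in bitransgenic and 121, 199 and 124 in monotransgenic arrays of experiment 2, which overlapped (-0.51 ± 0.21, adjusted p = 0.269). In set 1 it was at 107, 112 and 102 with doxycycline removed and 164, 146 and 137 in monotransgenic mice. Those groups did not overlap (-0.38 ± 0.21, adjusted p = 0.733), and the mean of the 3 sets was -0.28 ± 0.12 (adjusted p = 0.353). In set 3 *Srebf1* was at 139, 145 and 139 in bitransgenic and 155, 140 and 116 in monotransgenic arrays, which overlapped (0.06 ± 0.21). *Scap*, the escort protein, stayed within 0.03 of 0 in the 3 sets on its brightest probe set. A second, dim one read -0.20, -0.07 and -0.18 in set 1, experiment 2 and set 3. *Insig2*, the isoform that is not driven by SREBP in the same way, read -0.19 ± 0.16, 0.23 ± 0.16 and -0.26 ± 0.16 in set 1, experiment 2 and set 3.

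The last 4 members move, export or clear sterol. *Stard4* carries cholesterol between membranes and is an SREBP target. It was at 74.7, 72.8 and 61.8 with doxycycline removed, 80.4, 69.5 and 51.3 on the diet, and 51.5, 40.9 and 56 in the monotransgenic arrays of set 1. The group off doxycycline lay above the monotransgenic group without overlap, and the diet group overlapped with both. The differences were 0.45 ± 0.19 (adjusted p = 0.561, limma) for doxycycline removed and 0.33 ± 0.19 (adjusted p = 1) for the diet, each minus monotransgenic. The other *Stard4* probe sets above the filter read 0.77 and 0.60 for diet minus monotransgenic. For doxycycline removed minus diet they read -0.23 each, against 0.11 on the brightest. Whether the diet group was the highest of set 1 thus depended on the probe set. In experiment 2 and set 3 the brightest *Stard4* probe set read 0.18 ± 0.19 and 0.14 ± 0.19. Its mean was 0.26 ± 0.11 (above 0 in 3 of 3 sets, adjusted p = 0.367), while the others were below 0 in set 3. *Cyp46a1*, the cholesterol 24-hydroxylase of neurons, was at 691, 759 and 926 with doxycycline removed, 1199, 954 and 1157 on the diet, and 1123, 1126 and 1157 in the monotransgenic arrays of set 1. The group off doxycycline was the low one and overlapped with neither other group. The differences were -0.54 ± 0.31 against monotransgenic (adjusted p = 0.756) and -0.49 ± 0.31 against the diet (adjusted p = 0.999).

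In experiment 2 *Cyp46a1* was at 964, 417 and 746 in bitransgenic and 548, 1847 and 1242 in monotransgenic arrays, which overlapped (-0.69 ± 0.31, adjusted p = 0.322). Without the 2 arrays of highest actin ratio, a setting added after the data were seen, *Cyp46a1* was the member that passed there. In set 3 *Cyp46a1* read 0.22 ± 0.31. The cholesterol exporters *Abca1* and *Abcg1*, targets of the oxysterol receptors LXR, stayed between -0.25 and 0.18 in the 3 sets on their brightest probe sets. A second probe set of *Abcg1* read -0.18, 0.06 and 0.21 in set 1, experiment 2 and set 3.

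**Figure D3:**
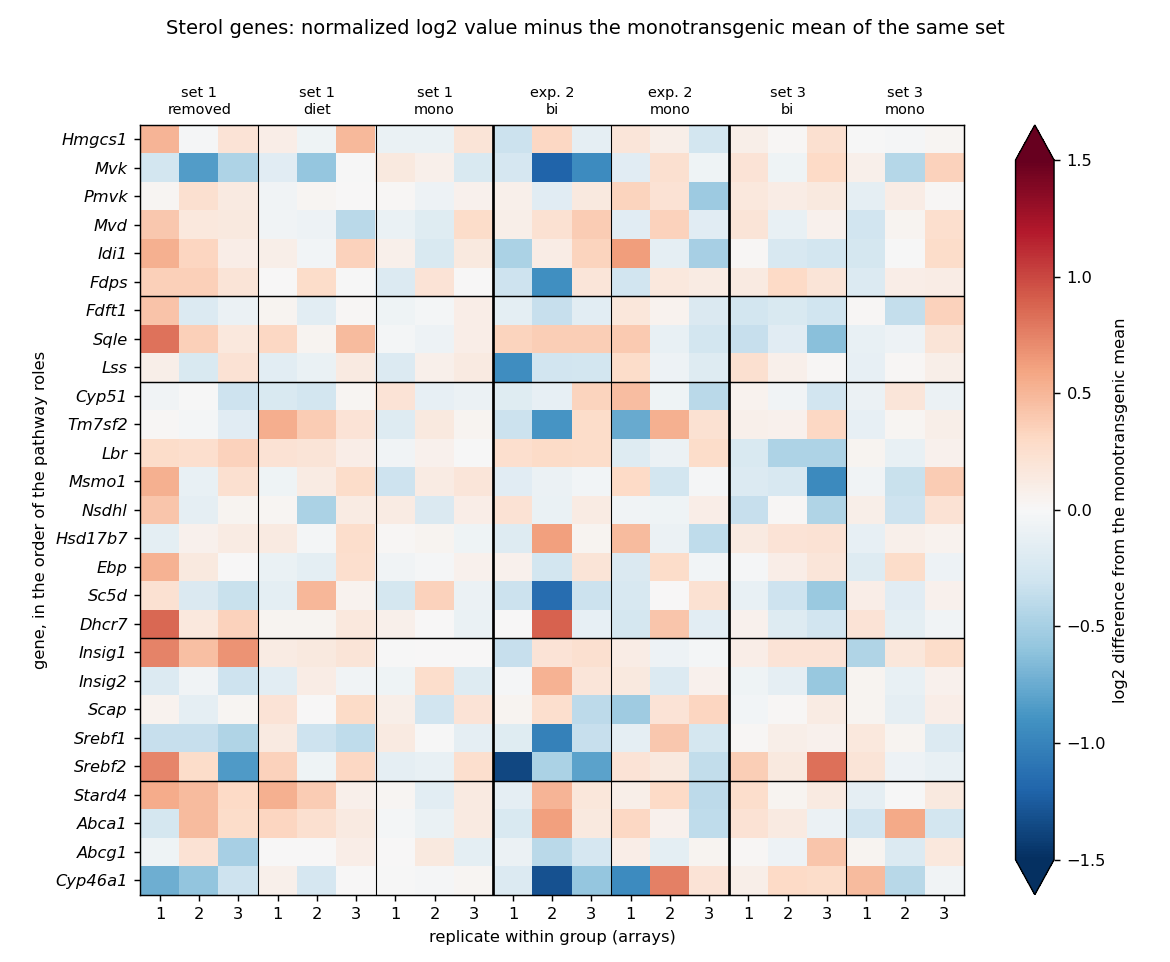
Normalized log2 value of each of the 27 genes (rows, in role order) in each of the 21 arrays (columns, by group and replicate), minus the monotransgenic mean of the same set, in red where above and in blue where below. The second bitransgenic array of experiment 2 holds many of the strongest colours, such as -1.31 for *Cyp46a1* and 0.88 for *Dhcr7*.

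Some arrays held many of the extreme values. The second bitransgenic array of experiment 2, which had the highest actin ratio (6.24), held the lowest of the 21 deposited values for 10 members and the highest for 4, or 51.9% of members at an extreme against 39.9% of all genes. In set 1 the first array with doxycycline removed held the highest value of 5 members (*Hmgcs1*, *Sqle*, *Nsdhl*, *Ebp* and *Insig1*) and the lowest of 1, or 22.2% against 8.25%. In that array 15 of the 18 enzymes lay above the monotransgenic mean of the set, and in the other two 9 and 12. The monotransgenic arrays themselves gave 7, 9 and 12, and the diet arrays 10, 8 and 14. In set 3 the third monotransgenic array had 15 enzymes above its own group's mean, and the bitransgenic arrays had 11, 8 and 9. The count of enzymes above the mean thus varied within groups about as much as between them.

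Of the 27 members, 13 had more than 1 probe set above the filter on dim values. The probe sets of a gene disagreed in sign for 5 of the 13 in doxycycline removed minus monotransgenic, for 7 in experiment 2 and for 6 in set 3. *Hmgcs1*, with 4 probe sets above the filter, was between 0.24 and 0.40 on each of them in set 1, and between -0.14 and 0.04 in experiment 2. In set 3 its brightest probe set read 0.11 and the other 3 read -0.07, -0.19 and -0.18. *Stard4*, with 3, was between 0.37 and 0.54 in set 1 and between 0.18 and 0.50 in experiment 2. In set 3 its brightest probe set read 0.14 and the other two -0.14 and -0.12. *Insig1*, *Sqle* and *Lbr* had a single probe set. *Mvk* had a second one under the filter, which read -0.64 in set 1 and 0.29 in experiment 2.

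**Figure D4:**
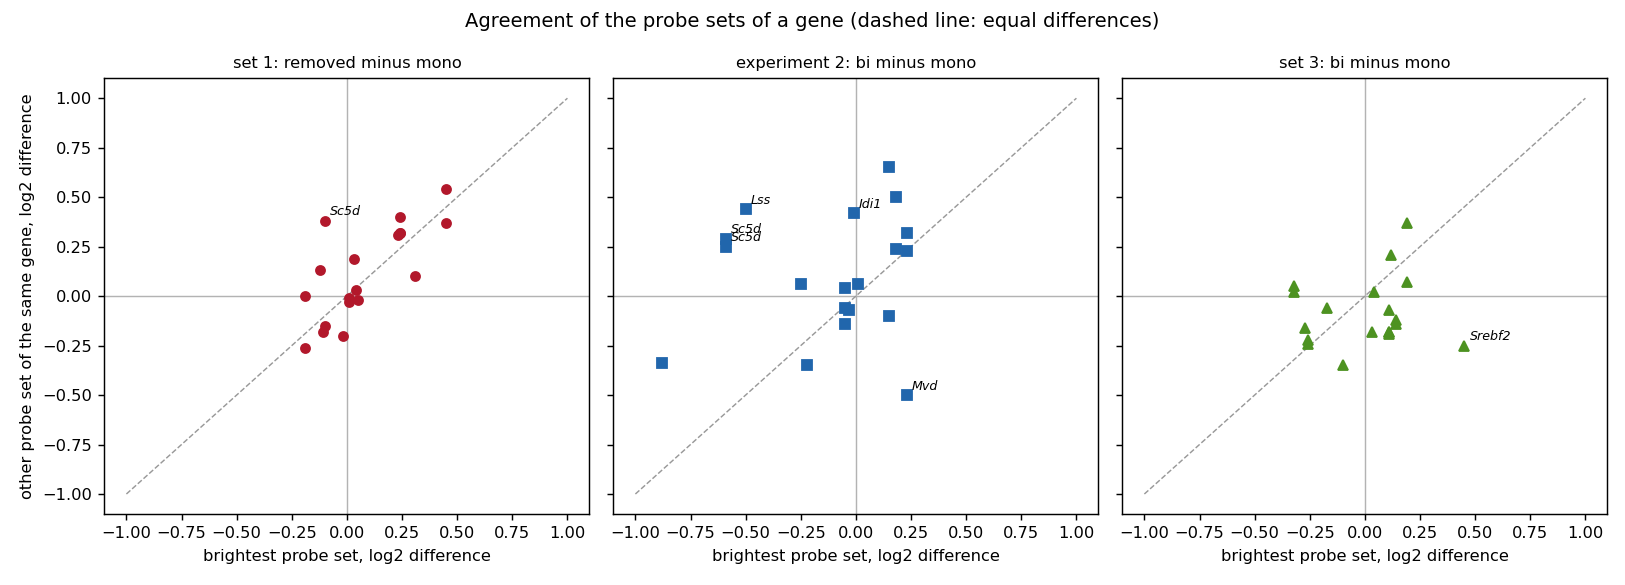
Log2 difference of every other probe set of a gene that passed the filter on dim values (vertical) against that of its brightest probe set (horizontal), in set 1, experiment 2 and set 3, with the line of equal differences dashed. Genes are named where the signs differ by more than 0.4 log2 units, among them *Sc5d* in experiment 2 (-0.59 on the brightest, 0.29 on the next).

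The differences between sets were fitted as well. For set 3 minus set 1 (doxycycline removed minus monotransgenic), *Sqle* differed by -0.83 ± 0.27 and *Lbr* by -0.67 ± 0.19, each with an adjusted p of 1 in limma. For experiment 2 minus set 1, *Insig1* differed by -0.59 ± 0.25 (adjusted p = 0.591). For set 3 minus experiment 2, *Srebf2* differed by 1.33 ± 0.44 and *Mvk* by 0.94 ± 0.35, each with an adjusted p of 0.582. No gene at all passed in these 3 comparisons (0%). At an unadjusted p under 0.05 there were 3 members for experiment 2 minus set 1 (all genes 7.91%), 3 for set 3 minus set 1 (3.5%) and 6 for set 3 minus experiment 2 (8.09%).

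A further 47 genes of sterol and linked lipid pathways were listed, and the 39 of them on the arrays gave 0 calls in each of the 6 main comparisons. At an unadjusted p under 0.05 there were 1, 2, 0, 4, 2 and 2 of 39 in limma, in the order used above. Their median was -0.02 in set 1 (doxycycline removed minus monotransgenic), -0.03 in experiment 2, 0.08 in set 3 and 0.00 in the mean. The 10 genes of SREBP-driven fatty acid synthesis had 6 above 0 in set 1, 3 in experiment 2 and 9 in set 3. *Elovl6*, a fatty acid elongase, read 0.54 ± 0.18 in set 1 (adjusted p = 0.351) and 0.29 ± 0.10 in the mean (adjusted p = 0.236), and *Scd1*, a desaturase, 0.84 ± 0.36 in set 1 (adjusted p = 0.556). Of 8 sterol transport genes 6 were below 0 in experiment 2, where *Gramd1a*, which moves cholesterol from the plasma membrane, read -0.73 ± 0.23 (adjusted p = 0.194). Of 6 genes for SREBP processing and sterol-regulated degradation, *Mbtps1*, the first protease that cuts SREBP, read -0.18 ± 0.08 in the mean (adjusted p = 0.365). The 7 measured genes of the isoprenoid branches and the 7 of LXR, oxysterol and export had medians between -0.11 and 0.03 in these 4 comparisons.

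Cell type markers were read beside the members. Of 9 measured oligodendrocyte markers, 8 were below 0 in set 1 (median -0.28), 7 in experiment 2 (median -0.33), 5 in set 3 (median -0.13) and 9 in the mean (median -0.19), with 0 calls in limma. Their summed intensity was 3767 to 4464 with doxycycline removed and 4113 to 5544 in the monotransgenic arrays of set 1, 2849 to 4109 against 3936 to 4868 in experiment 2, and 4031 to 4674 against 3849 to 4818 in set 3. The diet group of set 1, with the transgene off, also had 8 of the 9 below 0 against the monotransgenic group (median -0.21). For doxycycline removed minus diet 5 were above 0 and 4 below (median 0.01). The 4 markers of oligodendrocyte precursors were all below 0 in experiment 2 (median -0.54), with sums of 234 to 301 against 358 to 584, and 2 of 4 were below 0 in set 1 (median -0.02) and in set 3 (median -0.08). The 5 granule cell markers were all below 0 in set 1 (median -0.48), with sums of 12276 to 14714 against 15547 to 18891, and in set 3 (median -0.40), with 11226 to 12832 against 11156 to 16685. In experiment 2, 3 of the 5 were below 0 (median -0.10), with 15717 to 16367 against 14201 to 19419. For set 1 diet minus monotransgenic 4 of the 5 granule cell markers were below 0 (median -0.13), and for doxycycline removed minus diet 4 (median -0.20). The 3 meningeal markers summed to 47 to 72 with doxycycline removed, 62 to 79 on the diet and 679 to 859 in the monotransgenic arrays of set 1, where *Ogn* (-4.16 ± 0.74, adjusted p = 0.0321) and *Lum* (-1.48 ± 0.28, adjusted p = 0.0468) fell. The meningeal sums were 73 to 116 against 127 to 560 in experiment 2 (median difference 0.17) and 64 to 193 against 75 to 937 in set 3 (median -0.37), with 0 calls there. The lists of other cells gave 0 calls in these 3 comparisons. In set 1, experiment 2 and set 3 the medians were 0.01, -0.10 and -0.02 for 6 astrocyte markers, -0.09, -0.17 and 0.13 for 4 of microglia, and -0.32, 0.09 and 0.11 for 4 of CA1 and CA3 pyramidal cells. They were 0.05, -0.24 and -0.05 for 2 endothelial markers and -0.19, 0.37 and -0.05 for 2 of choroid plexus. The summed intensities of these 5 lists overlapped between the groups except in set 1, where they were lower with doxycycline removed for microglia (961 to 1131 against 1218 to 1643), pyramidal cells (342 to 399 against 458 to 513) and choroid plexus (25 to 40 against 43 to 59). Sums weigh bright markers most, and each of these lists was mixed in set 1. *C1qa* (0.36) and *Cx3cr1* (0.13) of microglia, *Mpped1* (0.75) of pyramidal cells and *Ttr* (0.42) of choroid plexus were above 0. The other measured markers of these lists were below 0. No marker was at 0 in any array. The part of these markers in the values of the sterol genes was not tested.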

How the data were processed

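Total RNA of mouse dentate gyrus was measured on 21 Affymetrix arrays, 3 in each of 7 groups taken from the labels. The deposited intensity of each of 45101 probe sets is linear and was scaled by the authors before deposit to a 2% trimmed mean of 150.0 on every array, as the values show. The sources used here do not give the tool, and detection calls were not used. The number of arrays limits the precision.

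After 64 controls were left out, log2(value + 16) was quantile-normalized, the upper 60% of probe sets by mean (27023, limit 4.90) were kept, and the brightest probe set of each gene gave 12499 genes. A limma 3.58.1 fit (run in R 4.3.3; files were read by data.table, release 1.17.8) had 1 coefficient per group, 14 residual degrees of freedom and a mean trend in eBayes. Tests were two-sided with a threshold of 0.05 on the Benjamini-Hochberg adjusted p. The fit was tested on simulated data. Names came from the platform annotation and were updated by Entrez ID. The 932 probe sets annotated with several symbols were not assigned to a gene.

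The members, lists and tests were chosen with earlier results of these data known. Values in each array compared are given for the 4 members of lowest p in each main comparison, and other genes named beyond the extremes of a role group were chosen after their values were seen. Alternatives changed the pseudocount, normalization, filter, probe set rule, arrays fitted, array weights and replicates.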

Additional observations from a re-analysis of the deposited data

Results flagged for a closer look

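*Sqle* and *Lbr* stood out because their groups did not overlap in opposite directions in 2 sets. With the transgene on, every array lay above the monotransgenic arrays in set 1 and below them in set 3. The diet arrays of set 1, with the transgene off, also lay above the monotransgenic ones for *Lbr* (0.17 ± 0.13). For *Sqle* the diet arrays overlapped with the monotransgenic ones (0.27 ± 0.19). The difference of the set 3 from the set 1 difference was -0.83 ± 0.27 for *Sqle* (limma, adjusted p = 1) and -0.67 ± 0.19 for *Lbr* (limma, adjusted p = 1), so neither passed the test over all genes. Of all 12499 genes, 137 (1.1%) behaved in this way between these sets. The treatment of the set 3 mice is not in the labels, and set and treatment cannot be told apart.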

How the results depend on the processing

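Of 398 alternative values of the 4 members of lowest p in each main comparison, each kept its direction, 0 were reversed and 6 passed the adjusted threshold. These members were picked by p in the same data, which favours a stable sign. Other probe sets taken alone were not among the settings, and some went the other way, as given above for *Lss* and *Sc5d*. Of 257 alternative counts and medians, 244 kept the reported value within the limits set. A count was kept if it stayed at 0. A median was kept if it moved by less than the SD of the array medians of the members within groups. That SD was 0.05 to 0.14 by comparison, so a change of sign can count as kept. The doxycycline removed minus diet median of 0.07 ran from -0.01 to 0.10 with 1 array left out. The title prefix setting described below, which cannot move the set 3 median, was among the 257. The exceptions to these limits follow. With the arrays of each set fitted alone, 2 members were called for doxycycline removed minus monotransgenic (*Insig1*, *Cyp46a1*), with 326 genes called in all against 9. In experiment 2 that fit called 0 genes against 12. With array weights, 1 member was called there (*Insig1* at 0.62, adjusted p = 0.0406, 254 genes in all), 1 in experiment 2 (*Mvk* at -0.85, adjusted p = 0.0469, 890 genes) and 3 in the mean of the 3 sets (*Mvk* at -0.47, *Insig1* at 0.33 and *Cyp46a1*, 1374 genes against 9), and the set 3 median was 0.00 in place of 0.09. When all probe sets of a gene were averaged, the set 3 median was -0.03. Without the 2 arrays of highest actin ratio, a setting chosen after seeing the data, 1 member was called in experiment 2 (*Cyp46a1*, with 515 genes in all). Without experiment 2, also chosen after seeing the data, 0 members were called in the mean (182 genes in all). Over all settings other than those that leave out 1 array, the adjusted p of *Insig1* in set 1 against monotransgenic ran from 0.00982 to 0.31, and that of *Mvk* in experiment 2 from 0.0469 to 0.938. The count of all genes called ran from 3 to 84 for doxycycline removed minus diet (4 as reported), 0 to 41 for diet minus monotransgenic (3) and 0 to 39 in set 3 (0). The causes were not tested.

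When each array was left out in turn, between 0 and 1 members were called in experiment 2, with 5 to 652 genes in all: *Cyp46a1* without the first monotransgenic array, and *Mvk* (-1.07, adjusted p = 0.0336) without the first bitransgenic array. The experiment 2 median ran from -0.18, without the third monotransgenic array, to 0.05, and was -0.10 without the third bitransgenic array. The set 3 median ran from -0.01, without the first monotransgenic array, to 0.08, and was 0.02 without the second. In the other comparisons no member was called with any 1 array left out, and all genes called numbered 0 to 73 in set 3 and 3 to 316 in the mean. In set 3 the titles share a number prefix between a monotransgenic and a bitransgenic array in 2 cases, and what the prefix marks is not stated. With it as a factor, 0 members and 0 genes were called; the median of 0.09 cannot move, since each shared prefix is on 1 array of either genotype. For the replicate numbers, no paired analysis was possible because they were given in accession order. Small changes are out of reach at 3 arrays a group, and an exact permutation test of 3 against 3 cannot go below 0.10.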
